A study of Mus musculus with 6 samples.

Results

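The cytosolic ribosomal protein genes were followed in whole lungs of mouse embryos at E18.5, just before birth. A gene was counted when its symbol began with Rpl or Rps followed by a digit, or was *Rplp0*, *Rplp1*, *Rplp2* or *Rpsa*. Kinase genes named Rps6k and pseudogene names holding -ps were left out. Of the 19938 genes measured by a probe set with a single gene symbol, 63 met this rule, 38 with a large subunit name and 25 with a small subunit name. The rule reads names only and uses no measured value, though it was proposed with earlier results of these data known.

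Both groups carried the C57Bl/6 strain background and were untreated. The 3 *Tnrc6a* null lungs came from embryos homozygous for a gene trap, an insertion of a β-galactosidase reporter into *Tnrc6a* (also called GW182), and the 3 WT lungs from wild type embryos. The sample titles give a replicate number and do not say whether a sample holds RNA of 1 embryo or of several. Each sample was whole lung, read on 1 Affymetrix whole-transcript array. All cell types of the lung were therefore mixed, and a change in cell make-up cannot be told apart from a change in RNA per cell. The trap is present in every cell of the mutant embryo. TNRC6A is the scaffold that joins Argonaute proteins, loaded with a microRNA, to the enzymes that shorten and decay mRNA. The study places it in apical granules of multiciliated airway cells, a small share of a whole lung.

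Ribosomal proteins are the protein part of the ribosome. The large subunit joins amino acids and the small subunit reads the mRNA, and since most of the proteins are present in a single copy per ribosome, the genes are usually expressed in a balanced way. Their mRNAs start with a run of pyrimidines, the 5′ terminal oligopyrimidine (TOP) motif, through which mTOR signalling and LARP1 adjust their translation together. Growing and dividing cells make many ribosomes. RPS6, a protein of the small subunit, is phosphorylated by the S6 kinases downstream of mTOR.

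The starts of these genes are shown first, because the TOP motif is the sequence feature this family is best known for. RefSeq promoters of build GRCm38.p6 were matched by symbol to 51 of the 63 genes, with 60 promoters. Each line gives 30 bases, 12 before the annotated start and 18 from it on, 5′ to 3′ on the strand of the gene. Capitals mark the longest run of a C followed by at least 4 further C or T that begins within 5 bases of the start.
Rps6 (chr4:86857350-86857379, minus strand): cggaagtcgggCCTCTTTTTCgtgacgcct
Rps15a (chr7:118116130-118116159, minus strand): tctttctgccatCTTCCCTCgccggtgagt
Rpl28 (chr7:4792953-4792982, plus strand): cctctcgtgtCTCTCTTTCCgtctccggcc
Rpl27a (chr7:109519183-109519212, plus strand): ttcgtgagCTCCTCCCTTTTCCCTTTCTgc
Rplp2 (chr7:141447639-141447668, plus strand): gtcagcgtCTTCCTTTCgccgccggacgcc
Rpl22 (chr4:152325714-152325743, plus strand): gccctgggaaaagcaatagctggccgatcg
Rpl5 (chr5:107900516-107900545, plus strand): cacgtcgcttgcgtgctggtggtgctacat

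The first 5 genes carried such a run, while *Rpl22* (here 1 of its annotated starts) and *Rpl5* did not. *Rpl28* was chosen for display after its values were seen, as a bright gene with a clear run. Over all 60 promoters 21 had a run (35.0%), against 18.3% of the 32851 RefSeq promoters. The ETS factor motif CCGGAAG, or CTTCCGG on the other strand, lay within 250 bases before to 50 after the start in 33.3% of the ribosomal protein promoters and 8.86% of all. The SP1-like box GGGCGG or CCGCCC was found in 56.7% of them and 35.7% of all, the YY1-like letters AAGATGG or CCATCTT in 8.33% and 6.34%. TATAAA stood within 50 bases before the start in 0 of 60, against 2.63% of all. An annotated start can lie some bases away from the one used in lung, so a missing run says only that these letters are not in this window.

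The array medians were close, between 5.01 and 5.03 in the *Tnrc6a* null lungs and between 4.98 and 4.99 in the WT lungs. The mean over all genes tested was lower in WT 1 (5.38) than in the other lungs (5.42 to 5.49). The labels describe the values as log(2) transformed. The base could not be checked from the values, so differences are given on that scale and not as folds. *Tnrc6a* itself read 5.45, 5.04 and 5.40 in the null lungs, against 7.38, 7.13 and 7.18 in the WT lungs (difference -1.93, adjusted p = 0.00312, limma), with no overlap. The place of this probe set relative to the trap is not stated. It was the 1 gene of 19938 past the adjusted threshold of 0.05, which makes the background 0.00502%. Across all genes *Tnrc6a* null 3 and WT 1 were more alike (r = 0.992) than either was to a lung of its own genotype (0.979 to 0.983 for null 3, 0.987 to 0.988 for WT 1). They were not the only such match. Null 2 and WT 2 also correlated at 0.992, above null 2 with null 1 (0.990) or null 3 (0.983), though WT 2 was closer still to WT 3 (0.993). The results below are therefore also given lung by lung. Of 16 lung markers, 13 were in the brightest 10% of genes, among them surfactant and endothelial genes.

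No ribosomal protein gene passed the test of a difference between the genotypes. All 63 stayed short of the adjusted threshold, with an adjusted p between 0.890 and 0.997 (limma). At an unadjusted p under 0.05 there were 2, both higher in the null lungs, *Rpl22* and *Rplp2*, against a background of 2.46% of genes higher and 2.96% lower. In 1 gene, *Rpl22*, every null lung lay above every WT lung, and in 0 genes every null lung lay below, while 4.67% and 5.51% of all genes were separated in this way. The differences were small, between -0.13 and 0.29 on the log scale. The 95% interval of the difference stayed within 0.5 to either side of 0 for 56 of the 63 genes, and within 0.25 for 16.

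**Figure D1:**
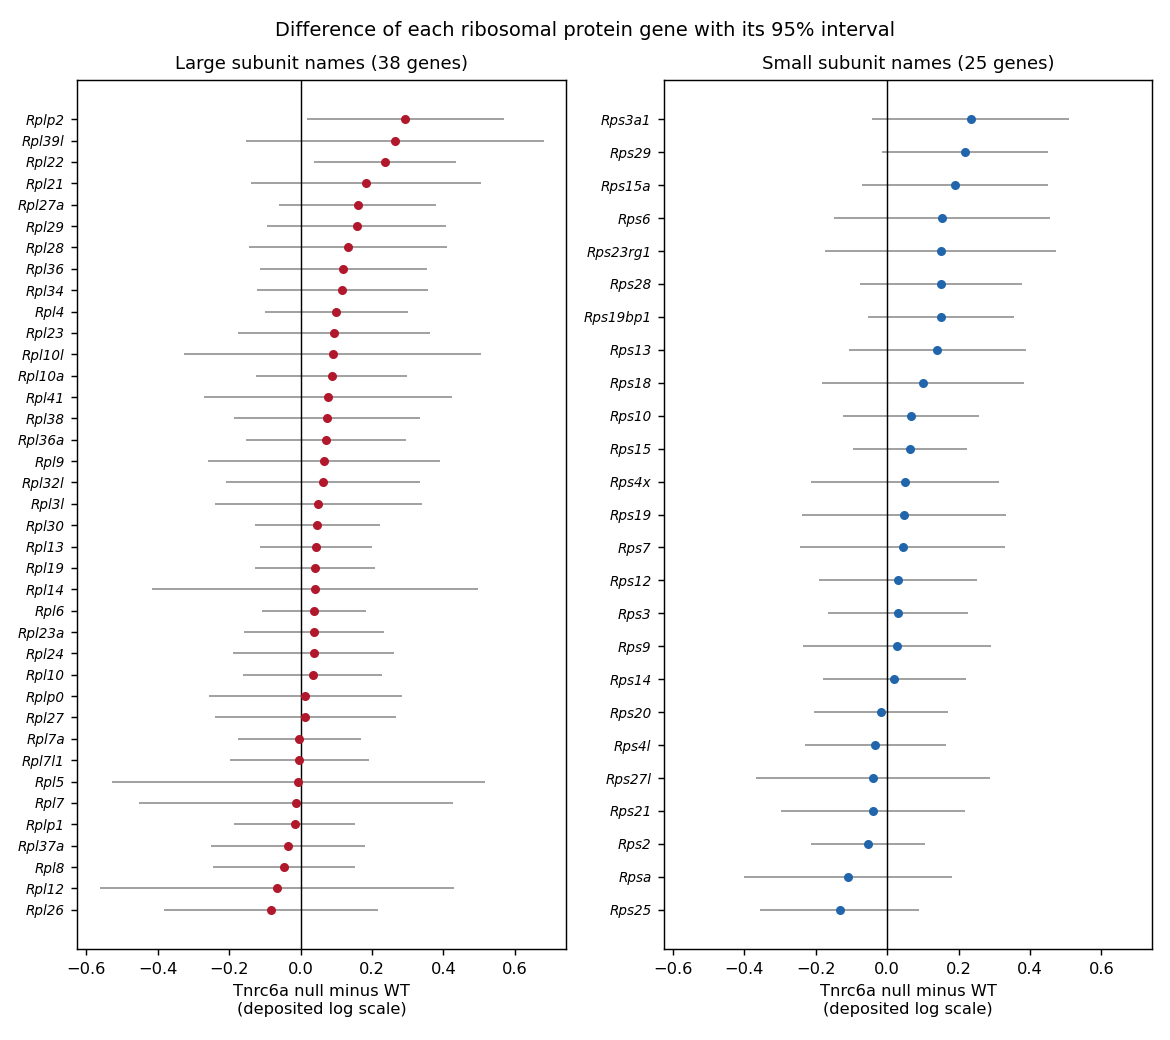
Difference of each of the 63 genes, *Tnrc6a* null minus WT, on the deposited log scale (x axis), for large subunit names (left) and small subunit names (right). Points are differences of means of 3 lungs each and bars are 95% intervals from limma. The intervals of *Rplp2* and *Rpl22* are the only ones that leave out 0, and most points lie a little to the right of 0.

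Most of the small differences ran the same way. Of the 63 genes, 47 had a higher mean in the null lungs and 16 a lower one, with a median difference of 0.047. Over all genes 9810 were higher and 9931 lower, with a median of 0.000. The large subunit (29 higher, 9 lower, median 0.048) and the small subunit (18 higher, 7 lower, median 0.047) were alike in this. Centring each array on its median moved the split to 37 higher and 23 lower. The median difference of the 63 genes then fell to 0.010, and that of all genes to -0.037. Leaving out WT 3 brought the lower genes to 25.

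Direction went with signal in these arrays, and ribosomal protein genes are bright. The median difference was 0.15 in the dimmest 10% of genes and -0.063 in the brightest, where 555 genes were higher and 1424 lower. Of the 47 ribosomal protein genes in the brightest 10%, 34 were higher and 13 lower (median 0.043). The 16 dimmer ones held 13 higher and 3 lower (median 0.077). The part of signal in these directions was not tested.

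**Figure D2:**
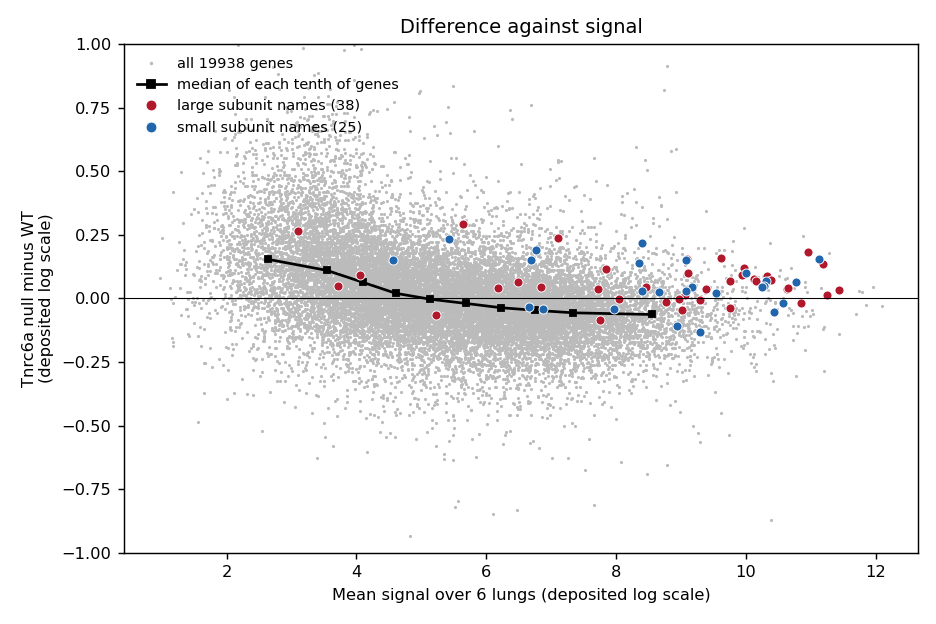
Difference between *Tnrc6a* null and WT (y axis) against mean signal over the 6 lungs (x axis), both on the deposited log scale, for all 19938 genes (grey), large subunit names (red) and small subunit names (blue). The black line joins the medians of 10 equal bins of genes and descends with signal, from 0.15 to -0.063, while 47 of the 63 coloured points lie above 0. The 9 genes beyond 1 in either direction are outside the plotted range.

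As a group, the 63 genes overlapped between the genotypes. The mean deviation of the 63 genes from their own 6-lung means was 0.046, -0.029 and 0.077 in *Tnrc6a* null lungs 1, 2 and 3, and 0.072, -0.067 and -0.098 in WT lungs 1, 2 and 3. The difference of 0.062 between the genotypes was near the SD between null lungs (0.0545) and under that between WT lungs (0.0904), and WT 1 sat above null 1 and null 2. Large subunit genes averaged 0.037, -0.048 and 0.109 in the null lungs and 0.091, -0.088 and -0.102 in the WT lungs. Small subunit genes averaged 0.059, -0.001 and 0.028 in the null lungs and 0.042, -0.036 and -0.093 in the WT lungs. In both subunits WT 3 was the lowest lung and WT 1 the highest WT lung.

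Gene by gene, *Tnrc6a* null 3 was the highest of all 6 lungs in 17 of the 63 genes, null 1 in 11 and null 2 in 4, against WT 1 in 27, WT 3 in 2 and WT 2 in 1. The lowest lung was null 3 in 7, null 2 in 6 and null 1 in 1, against WT 3 in 33, WT 1 in 8 and WT 2 in 7. So the genes at the top and at the bottom were most often set by WT lungs, 1 and 3. Null 3 and WT 1 lay both above the other lungs of their genotype in 36 genes, both below in 10, and on the same side in 73.0%, close to the 72.7% of the brightest 10% of genes and above the 65.4% of all genes. The median size of the step was 0.175 for null 3 against the other null lungs and 0.215 for WT 1 against the other WT lungs, while the median size of the genotype difference was 0.063. Across genes the 2 steps correlated at r = 0.47 over the 63 genes, 0.54 over all genes and 0.68 over the brightest 10%, where the genes share the same 6 arrays. A single lung against a pair varies more than 3 lungs against 3 by construction.

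**Figure D3:**
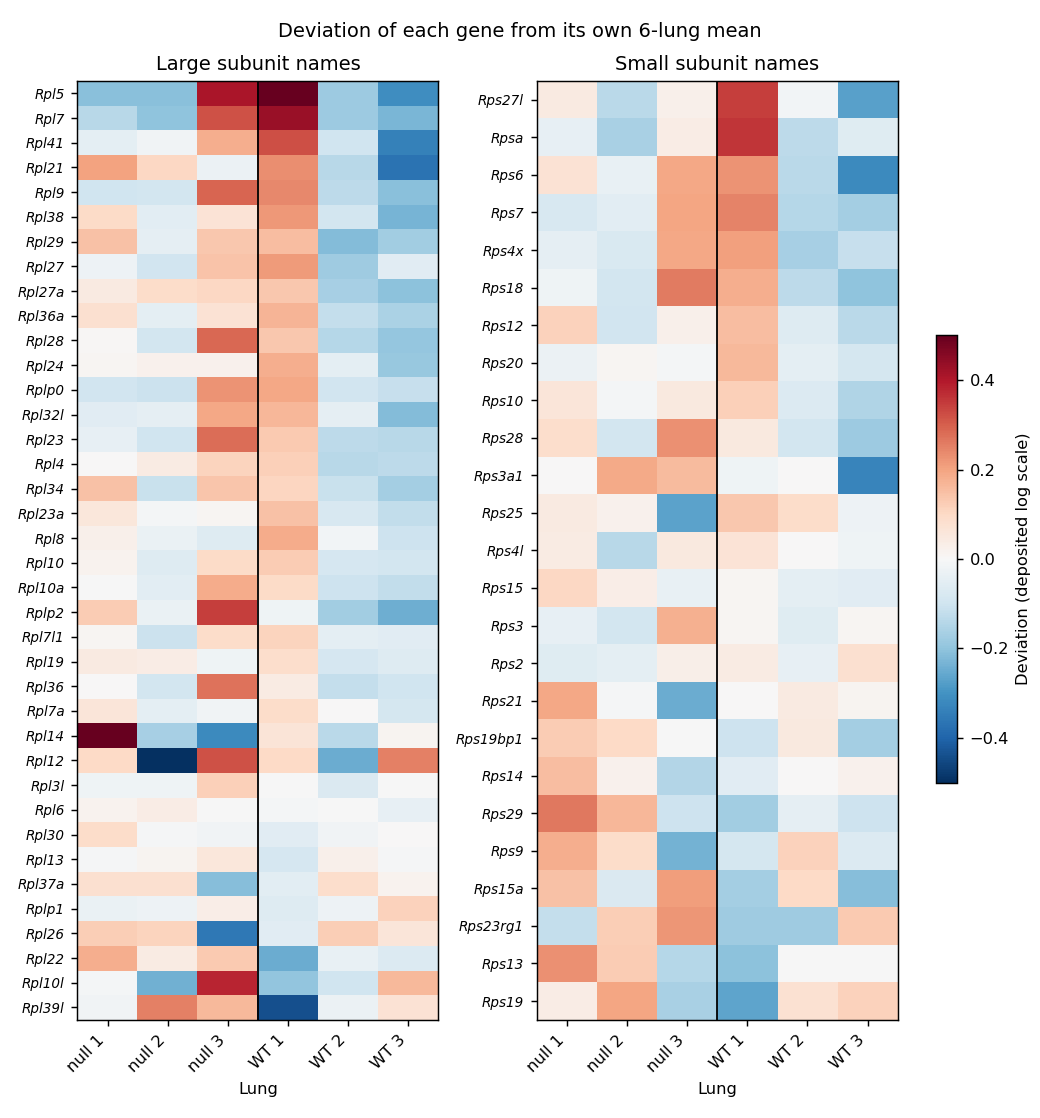
Deviation of each gene from its own mean over 6 lungs (colour, deposited log scale, red above and blue below), with the 3 *Tnrc6a* null lungs left of the line and the 3 WT lungs right of it. Genes are ordered by WT 1 minus the mean of WT 2 and WT 3. The null 3 and WT 1 columns are both red for *Rpl5* and *Rpl7* at the top and both blue for *Rps19* and *Rps13* at the bottom, while *Rpl10l* and *Rpl22* run opposite ways in them.

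Of single lungs, leaving out WT 1 changed these counts most. WT 1 was the highest WT lung in 40 of the 63 genes (63.5%), against 41.8% of the brightest 10% of genes and 22.5% of all genes. The background shares that follow are over all genes only, though 47 of the 63 genes lie in the brightest 10%. By construction, leaving out WT 1 thus favours null above WT more in the 63 genes than over all genes. Without it every null lung lay above both WT lungs in 25 of the 63 genes and below in 0, against a background of 8.45% and 18.2%, and 9 genes had an unadjusted p under 0.05 (8.68% of all genes did). Leaving out another single lung gave 4 to 7 genes free of overlap, where 15.9% to 24.6% of all genes were. The genes at an unadjusted p under 0.05 came to 0 without null 1 (3.67% of all genes) and 1 without WT 3 (3.35%). Without WT 1 and null 3 together the genes lying above numbered 29 and those below 1, against 18.2% and 25.3% of all genes. In none of these settings did a ribosomal protein gene pass the adjusted threshold.

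The stalk of the large subunit is a flexible arm that recruits elongation factors, built from RPLP0, RPLP1 and RPLP2 on a base of RPL12. *Rplp2* read 5.77, 5.61 and 5.99 in the null lungs, against 5.62, 5.47 and 5.40 in the WT lungs. Null 2 lay just below WT 1, which was the only overlap of the genotypes (difference 0.29 ± 0.12 SE, adjusted p = 0.890, limma). *Rplp0*, often used as a reference gene in quantitative PCR, read 11.15, 11.14 and 11.47 in the null lungs, against 11.44, 11.15 and 11.13 in the WT lungs. Its difference was 0.013, with null 3 and WT 1 standing 0.325 and 0.30 above the other lungs of their genotype. *Rplp1* differed by -0.017. *Rpl12* scattered most widely in this group, with 5.33, 4.71 and 5.55 in the null lungs against 5.33, 4.98 and 5.48 in the WT lungs (difference -0.067). The sign of that last value turned without null 2 or without WT 3. The stalk genes thus split evenly, 2 higher and 2 lower.

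RPL22 sits at the surface of the large subunit near the exit of the peptide tunnel and also binds RNA hairpins outside the ribosome. *Rpl22* read 7.28, 7.14 and 7.23 in the null lungs, against 6.85, 7.06 and 7.03 in the WT lungs (difference 0.24 ± 0.088 SE, adjusted p = 0.890, limma). The genotypes came closest at null 2 and WT 2, and WT 1 was here the lowest lung. Of 9 listed tunnel genes 5 were measured, 4 of them higher and 1 lower. *Rpl4*, whose long loop lines the tunnel, differed by 0.10. *Rpl26*, at the tunnel exit and also known as a regulator of p53 mRNA translation, read 7.88, 7.87 and 7.40 in the null lungs, against 7.70, 7.88 and 7.82 in the WT lungs. Its difference of -0.083 rested on null 3 and turned to 0.075 without that lung.

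RPL5 joins RPL11 and the 5S ribosomal RNA in a particle that enters the large subunit and, when free, binds MDM2. *Rpl5* read 9.08, 9.08 and 9.70 in the null lungs, against 9.79, 9.11 and 8.98 in the WT lungs. Null 3 stood 0.62 above the other null lungs and WT 1 0.745 above the other WT lungs, the widest such steps of these 2 lungs among the 63 genes, and the genotype difference was -0.007. All 5 probe sets of *Rpl5* differed by little, between -0.037 and 0.010. *Rpl11* has no probe set of a single symbol and is not reported here.

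Of the large subunit genes with the smallest p, *Rpl27a* read 9.66, 9.71 and 9.72 in the null lungs, against 9.75, 9.45 and 9.41 in the WT lungs (difference 0.16). The null lungs were tight, and WT 1 stood above all of them. The same arrangement, with WT 1 apart from WT 2 and WT 3, held for *Rpl29*, a small basic protein (9.24, 9.05 and 9.23 in null against 9.25, 8.88 and 8.92 in WT, difference 0.16). It held again for *Rpl21* (11.16, 11.06 and 10.93 in null against 11.19, 10.82 and 10.59 in WT, difference 0.18). *Rpl36* differed by 0.12, with null 3 its highest lung at 10.24, and by 0.015 without that lung. *Rpl21* differed by 0.045 without WT 3, its lowest lung. *Rpl14* had the widest spread among the null lungs, 6.72, 6.01 and 5.86, against 6.24, 6.04 and 6.19 in the WT lungs, and a difference of 0.040.

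RPS6 is the phosphorylated protein that the study stained in airway granules. *Rps6* read 11.20, 11.09 and 11.32 in the null lungs, against 11.35, 10.99 and 10.81 in the WT lungs (difference 0.15 ± 0.13 SE, adjusted p = 0.905, limma). WT 1 was its highest lung and WT 2 and WT 3 its lowest pair. All 8 probe sets assigned to *Rps6* were higher in the null lungs, by 0.10 to 0.23, though probe sets of one gene share their RNA and are not independent. The mRNA level says nothing of phosphorylation. *Rpl3*, whose mRNA the study probed in the same granules, has no probe set of a single symbol and is not reported here.

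*Rps29*, a small zinc-binding protein of the small subunit head, read 8.67, 8.57 and 8.30 in the null lungs, against 8.23, 8.36 and 8.30 in the WT lungs (difference 0.22 ± 0.10 SE, adjusted p = 0.890, limma). Null 1 and null 2 stood above all WT lungs, while null 3 equalled WT 3. Its 4 probe sets were all higher in the null lungs, by 0.22 to 0.32. *Rps3a1*, at the mRNA exit side, read 5.42, 5.61 and 5.58 in the null lungs, against 5.40, 5.42 and 5.09 in the WT lungs (difference 0.23), so that null 1 and WT 2 were equal. *Rps15a* read 6.92, 6.70 and 6.98 in the null lungs, against 6.60, 6.87 and 6.56 in the WT lungs (difference 0.19). In *Rps15a* WT 2 was the lung that reached into the null range. *Rps28*, near the mRNA exit, differed by 0.15 with all 7 probe sets higher, between 0.13 and 0.19. Its difference was 0.073 without null 3 and 0.23 without null 2.

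A few genes went the other way. *Rps25*, which many viral internal ribosome entry sites depend on, had the most negative difference. It read 9.34, 9.32 and 9.03 in the null lungs, against 9.43, 9.39 and 9.27 in the WT lungs (difference -0.13 ± 0.098 SE, adjusted p = 0.898, limma). Its 6 probe sets were all lower, by -0.14 to -0.020. Null 3 lay clearly under the rest, and the difference was -0.033 without that lung and 0.0 without null 3 and WT 1 together. *Rpsa*, a protein also known as a laminin receptor, read 8.90, 8.78 and 8.98 in the null lungs, against 9.30, 8.81 and 8.88 in the WT lungs. Its difference of -0.11 rested on WT 1, was 0.042 without that lung, and 4 of its 5 probe sets were higher in the null lungs.

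**Figure D4:**
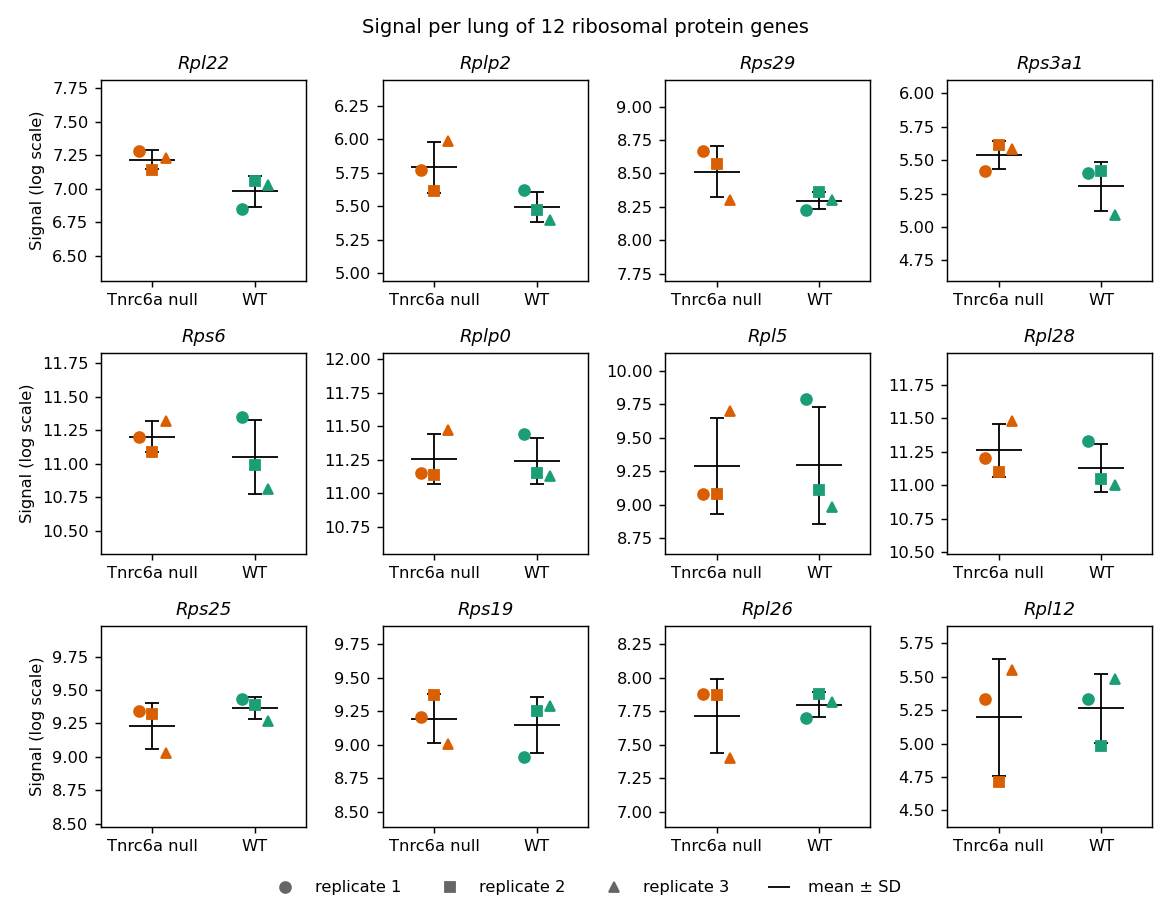
Signal of 12 genes in each lung (y axis, deposited log scale, the same span of 1.5 in every panel), with *Tnrc6a* null lungs left and WT lungs right. Symbols mark the replicate and black bars the mean ± SD of 3 lungs. *Rpl22* is the only panel without overlap, and in *Rplp0* and *Rpl5* the highest points are null 3 and WT 1.

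Genes along the mRNA path of the small subunit split into 3 higher and 1 lower of 4 measured (7 listed), with *Rps2* at -0.053 and *Rps3* at 0.030. Of 12 genes listed here, not a full set, as mutated in the human red cell disorder Diamond-Blackfan anaemia, 6 were measured. Of these 4 were higher and 2 lower (median 0.045). *Rps19*, the most often mutated of them, read 9.21, 9.37 and 9.01 in the null lungs, against 8.91, 9.25 and 9.29 in the WT lungs (difference 0.047). Null 3 and WT 1 were here the lowest lungs of their genotypes, the reverse of *Rpl5*. The other genes of this kind, found after the values were seen, included *Rps13*, *Rps9* and *Rpl37a*.

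Tissue-restricted and duplicate copies of ribosomal protein genes are known to replace their parent in some cells, as *Rpl39l* and *Rpl10l* do in testis and *Rpl3l* in muscle. *Rpl39l* read 3.08, 3.35 and 3.26 in the null lungs, against 2.66, 3.07 and 3.17 in the WT lungs, a signal in the dimmest 10% of genes, with a difference of 0.26 (95% interval -0.15 to 0.68). The overlap came from WT 3, and WT 1 was the lowest. *Rpl10l* differed by 0.090, *Rpl3l* by 0.050, *Rps27l* by -0.040, *Rps4l* by -0.033 and *Rpl7l1* by -0.003. The paralogues were thus 3 higher and 3 lower of 6 measured. *Rpl22l1*, *Rpl36al* and *Rps27* have no probe set of a single symbol and are not reported here. Among the small subunit names, *Rps19bp1* encodes a nucleolar protein that binds RPS19 and *Rps23rg1* is a retrogene of *Rps23*, so that neither is a canonical ribosomal protein. Each differed by 0.15, and without them 45 genes were higher and 16 lower.

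Ribosomal protein genes have many processed copies in the genome, and 39 of the 63 had several probe sets, up to 14 for *Rps12*. In 19 of the 39 all probe sets were higher in the null lungs, in 3 all were lower, and in 17 they pointed both ways. *Rpl19* shows the latitude this leaves. Its brightest probe set differed by 0.040, while 6 of its 7 probe sets were lower. *Rpl27a* (9 of 9 higher) and *Rpl36* (9 of 9 higher) were uniform. Over all 219 probe sets of the 63 genes, 157 were higher and 60 lower (median 0.050). A further 239 probe sets carry several symbols with a ribosomal protein among them and name no gene here, and 182 of these were higher and 55 lower (median 0.073). Of the 89 protein-coding genes in the RefSeq annotation that fit the name rule, 27 were left without a value, 16 of the large and 11 of the small subunit. *Rpl19*, *Rps12*, *Rps13*, *Rps9*, *Rpl37a* and, in the plot of deviations, *Rpl7* were named after their values were seen.

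The TOP-like run and the ETS motif split the genes into groups with medians close together. The 19 genes with a TOP-like run at an annotated start were 14 higher and 5 lower (median 0.067), and the 32 without were 26 higher and 6 lower (median 0.048). Among the genes shown above, *Rplp2* with a run was at 0.29 and *Rpl22* without one at 0.24. Since an annotated start can differ from the one used, this split does not sort TOP mRNAs from others. With an ETS motif 13 were higher and 6 lower (median 0.067), and without it 27 and 5 (median 0.050). The 63 genes lay on 17 chromosomes, 8 of them on the chromosome of *Tnrc6a*. All 8 had a higher mean in the null lungs, from 0.027 (*Rps9*) to 0.29 (*Rplp2*), as did 47 of the 63. *Rps15a* and *Rpl27a* are among the 8. The study reports that the trap was made on a mixed genetic background and later backcrossed. DNA linked to the trap cannot be told apart from the genotype here, and its part was not tested.

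Other genes of translation, listed by function, gave no call past the adjusted threshold either. The 16 measured mRNAs known to carry a TOP motif without encoding ribosomal proteins were 8 higher and 8 lower (median 0.020). *Gas5*, a noncoding host of small nucleolar RNAs, read 8.37, 8.20 and 8.64 in the null lungs, against 8.25, 8.03 and 7.98 in the WT lungs (difference 0.32, adjusted p = 0.890, limma). Per lung these 16 averaged -0.026, -0.040 and 0.109 in the null lungs and 0.151, -0.097 and -0.098 in the WT lungs, so null 3 and WT 1 were the high lungs here too. The 10 elongation and release factors were 6 higher and 4 lower (median 0.050). *Fau*, whose product is processed into the small subunit protein RPS30, differed by 0.033.

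Initiation factors were 7 higher and 25 lower of 32 (median -0.075), and 17 of them lay in the brightest 10% of genes, whose median was -0.063. *Eif4g2*, a relative of the scaffold eIF4G, had the smallest p of them, with a difference of -0.23. Of 77 mitochondrial ribosomal protein genes, which serve a separate ribosome, 44 were higher, 32 lower and 1 equal (median 0.020), and their lungs did not follow the cytosolic ones, null 3 being the lowest at -0.056. Ribosome assembly factors were 25 higher and 15 lower of 40 (median 0.018). *Rrs1*, an assembly factor of the large subunit, was the most different at 0.73, and *Ubtf*, a transcription factor of ribosomal RNA genes, was at -0.18 (adjusted p = 0.890 for each, limma). The 6 measured genes with a name beginning Rps6k, taken by name and not by a place downstream of mTOR, were 4 higher and 2 lower (median 0.047). Of 7 regulators of TOP mRNAs 3 were higher and 4 lower, with *Larp1* at -0.20.

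Markers of other cells and states were read beside these values. The 23 proliferation genes were 22 higher and 1 lower (median 0.23, none past the adjusted threshold). Per lung they averaged 0.18, -0.13 and 0.28 in the null lungs and 0.14, -0.22 and -0.25 in the WT lungs, so that null 1, null 3 and WT 1 were the 3 high lungs, as they were for the ribosomal protein genes. The 16 lung markers were 4 higher and 12 lower (median -0.077). Of these markers 3 were lower at an unadjusted p under 0.05, and 4 had every null lung below every WT lung. The 1994 brightest genes held 13 of the 16 markers. Of those 1994 genes 176 were lower at an unadjusted p under 0.05 and 312 had every null lung below every WT lung. The 12 macrophage genes were 1 higher and 11 lower (median -0.21). They averaged 0.023, 0.045 and -0.36 in the null lungs and -0.19, 0.21 and 0.28 in the WT lungs, low in null 3 and WT 1. The 11 measured erythroid genes were 9 higher and 2 lower (median 0.15), the 4 liver genes 4 higher and 0 lower, the 6 heart genes 0 higher and 6 lower. *Hbb-y*, an erythroid gene, had the largest positive difference of all genes (1.52, adjusted p = 0.890, limma), with no overlap. Erythroid and liver genes were dim, with median signals of 4.20 and 4.78 against 5.43 over all genes. Bins of genes with mean signal 4.10 and 4.61 had median differences of 0.063 and 0.020. Per lung the liver genes averaged -0.44, -0.038 and 0.86 in the null lungs and -0.38, -0.16 and 0.17 in the WT lungs. Heart genes averaged 0.22, -0.099 and -0.34 in the null lungs and -0.044, 0.089 and 0.17 in the WT lungs. In both lists the genotypes overlapped. The part of these markers in the ribosomal protein values was not tested.

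**Figure D5:**
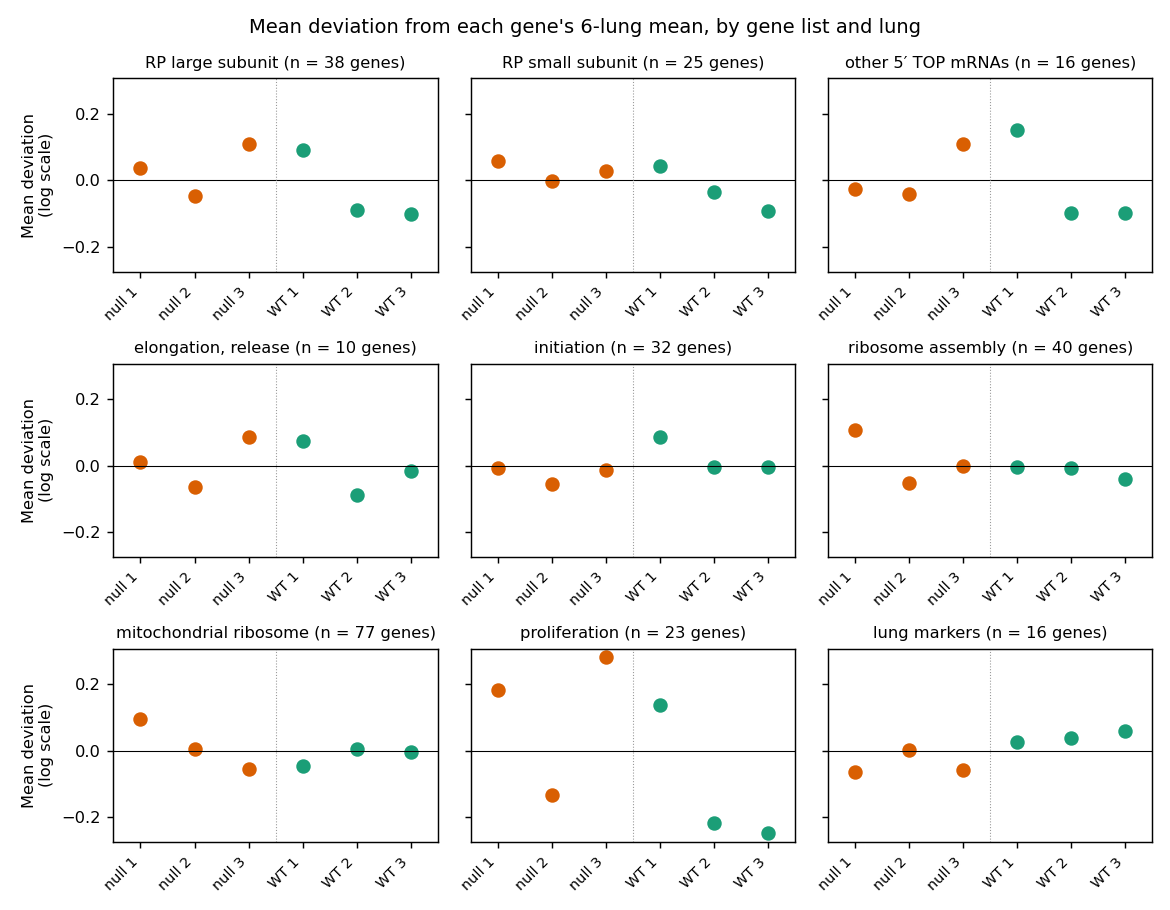
Mean deviation of each gene list from its genes' own 6-lung means (y axis, deposited log scale) in each lung, *Tnrc6a* null lungs in orange left of the dotted line and WT lungs in green right of it. RP stands for ribosomal protein. Null 3 and WT 1 are the high lungs for large subunit genes and for other TOP mRNAs, null 1, null 3 and WT 1 for proliferation genes, and mitochondrial ribosome genes follow another order.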

How the data were processed

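Lung RNA of 3 *Tnrc6a* null and 3 WT samples was hybridised to 1 array each. The values deposited by the authors are 1 per probe set and lung on a log2 scale per the labels. MAS5 is named in the submitters' processing notes, with version and settings not given in the sources used here. Scanner files were not used and signal over background is unknown, and the number of arrays limits the precision. Groups came from the sample titles. The labels do not tie the embryos to litters, so p-values measure the spread between these lungs.

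Of 35045 probe sets, 21789 had 1 gene symbol, 1621 several and 11635 none. Symbols were brought up to date by Entrez ID for 21698. The brightest probe set stood for each of 19938 genes, and values were used as deposited. A linear model per gene (limma 3.58.1 under R 4.3.3, eBayes with trend) gave null minus WT differences, and p-values were adjusted over all genes by Benjamini-Hochberg at 0.05. With 3 lungs against 3 an exact test of a single value cannot go below 0.1, so none is given. Lists were described by counts, medians and means with no set test. The procedure was also run on simulated data with noise drawn independently for each gene and lung. Such data hold no shift shared by many genes of a lung, so they cannot test the procedure against one. Summaries used Python 3.11.15 with pandas 2.3.3 and numpy 2.4.6, and plots matplotlib 3.10.9. Replicate numbers were not used to pair the lungs in the main fit. The deviations of same-numbered lungs correlated at -0.30, 0.36 and -0.16, which cannot show whether such lungs shared a litter or a batch.

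The genes and lists were chosen with earlier results of these data known. Named genes were the 7 large and 5 small subunit genes with the smallest p, the 4 largest differences each way, the 3 widest ranges, members of the structural groups, paralogues, *Rps6* and *Rpl3*, and up to 3 genes of each other list. Alternatives were quantile normalization, centring on the median, the brighter genes alone, array weights, probe sets averaged per gene, robust eBayes or no trend, the replicate block, the methods' t-test, symbols as annotated, and leaving out lungs. A comparison of protein sequences between paralogues was not run.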

Additional observations from a re-analysis of the deposited data

How the results depend on the processing

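The number of ribosomal protein genes past the adjusted threshold was 0 under each of the 17 other settings tried, and the lowest adjusted p that any of the 16 genes followed by name reached was 0.0962. Genes at an unadjusted p under 0.05, 2 as reported, numbered 1 with quantile normalization (4.45% of all genes), 0 with arrays centred on the median (6.92%), 6 with array weights (12.3%), 0 with the replicate block (4.12%) and 1 with the methods' t-test (5.53%). Genes with no overlap of the genotypes, 1 as reported, numbered 7 with quantile normalization (9.37% of all genes) and 3 with the mean of probe sets (10.2%). Leaving out 1 lung at a time gave 0 to 9 genes at an unadjusted p under 0.05 (3.08% to 8.68% of all genes), 4 to 25 with no overlap (15.9% to 26.7%), 11 to 25 lower in null, and a mean difference of 0.029 to 0.114, the highest counts of calls coming without WT 1. Without WT 1 and null 3 together these were 12 at an unadjusted p under 0.05 (14.5% of all genes), 30 with no overlap (43.6%) and 8 lower, and 23 genes passed the adjusted threshold over all genes, no ribosomal protein gene among them. Without *Rps19bp1* and *Rps23rg1*, a setting chosen after seeing the data, 16 genes were lower. Of 269 differences of named genes under other settings, 262 kept their sign, 6 reversed and 1 was exactly 0 (*Rps25*, without null 3 and WT 1). *Rpsa* was 0.0087 with the mean of probe sets, and ran between -0.20 (without WT 2) and 0.042 (without WT 1) with 1 lung left out. *Rpl12* ran between -0.24 (without null 3) and 0.18 (without null 2), and was 0.042 without WT 3. *Rpl26* ran between -0.165 (without null 1) and 0.075 (without null 3), and was 0.025 without null 3 and WT 1 together. The cause was not tested.

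Fewer samples make no overlap more frequent by construction. The median of all genes moved by at most -0.037 under another scaling. Probe sets read shared sequence where a ribosomal protein gene has processed copies, and the 6 arrays limit what differences can be seen.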
